A study of Mus musculus with 4 samples.

Results

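The Ly49 receptors are lectin-like proteins on the surface of mouse natural killer (NK) cells, encoded by the Klra genes. The 9 genes *Klra1* to *Klra9* were examined here, out of 32285 genes listed for the CD45 sort and 31053 listed for the T cell sort. All of them are listed in both. The members were chosen with their levels, shares of positive cells, co-detection and ZsG ratios in NK/ILC, T and *Lyz2* cells already known, so those values are given below as a description, without tests.

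Most Ly49 proteins bind MHC class I on other cells. The inhibitory members carry a signaling motif that recruits the phosphatases SHP-1 (*Ptpn6*) and SHP-2 (*Ptpn11*) and restrain killing of cells with normal MHC class I. They are Ly49A (*Klra1*), Ly49C (*Klra3*), Ly49E (*Klra5*), Ly49F (*Klra6*), Ly49G (*Klra7*), Ly49I (*Klra9*) and Ly49B (*Klra2*), the last of which is known from myeloid cells. Ly49D (*Klra4*) and Ly49H (*Klra8*) lack that motif and activate the cell through the adaptor DAP12 (*Tyrobp*). Each NK cell expresses its own subset of the receptors, so a population is a mosaic of combinations.

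The cells came from melanomas grown in wild-type C57BL/6 mice after subcutaneous injection of B16 ZsG cells, a single-cell clone of the B16-F10 line that makes the green fluorescent protein ZsGreen (ZsG) when doxycycline (dox) is given. Tumors were taken on day 8, after 4 days of dox, and ZsG in an immune cell marked material taken up from tumor cells. CD45-positive cells and CD45-positive TCRb-positive cells were each split by ZsG into libraries of negative and of positive cells, and the sources used here do not give the number of mice behind a library. In the CD45 sort the positive gate took bright cells, and the paper reports that most lymphocytes carrying ZsG were sorted as negative there. ZsG ratios of the CD45 and T cell sorts therefore rest on different gates. There was 1 droplet library per gate, so no value below describes the spread between mice, and all intervals are 95% intervals for counting error only.

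The 4 libraries kept 4699 (CD45 ZsG-negative), 4123 (CD45 ZsG-positive), 948 (T cell ZsG-negative) and 1879 (T cell ZsG-positive) cells, with a median of 5769 to 9928 UMIs (unique molecular identifiers, each standing for a captured RNA molecule) per cell. For the T cell sort, the labels contradict each other on which barcode suffix was ZsG-positive. The suffix with more barcodes was taken as ZsG-positive, and under the other assignment every ZsG ratio of that sort changes sign. Cells were grouped by UMIs: NK/ILC cells had at least 2 UMIs of *Ncr1* and *Klrb1c* and at most 1 of the CD3 genes, T cells had at least 3 CD3 UMIs, and *Lyz2* cells had at least 5 *Lyz2* UMIs. In the order of the libraries above, these were 2075, 121, 19 and 35 NK/ILC cells, 1653, 393, 658 and 785 T cells, and 323, 3415, 95 and 309 *Lyz2* cells. The gates overlapped: 27 of the 121 NK/ILC cells and 209 of the 393 T cells of the CD45 ZsG-positive library also met the *Lyz2* gate, so ratios are given with and without such cells. Libraries of the CD45 sort shared 6 cell barcodes and those of the T cell sort shared 1.

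The label NK/ILC was set beside markers. The NK list includes *Ncr1* and *Klrb1c*, which define the gate, so their presence was fixed in advance. All 9 NK markers had UMIs in the NK/ILC cells of each library, and summed to 8087 UMIs per 1000000 UMIs of the same cells (UPM, the unit of all levels below; CD45 ZsG-negative), 4220 (CD45 ZsG-positive), 9519 (T cell ZsG-negative) and 7445 (T cell ZsG-positive). B cell markers summed to at most 3.23 UPM in those cells. In the NK/ILC cells of the CD45 ZsG-negative library, T cell markers summed to 838 UPM, with a UMI in 94.6% of cells. Markers of plasmacytoid dendritic cells summed to 249 UPM there (57.3% of cells) and those of gamma-delta T cells to 51.7 (23.8%). ILC1 markers summed to 105 UPM, in only 22.4% of these cells. Macrophage and monocyte markers summed to 242 UPM in the NK/ILC cells of the CD45 ZsG-negative library and to 7226 in those of the CD45 ZsG-positive library, where all 10 of these markers had UMIs.

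All 9 members lie on the minus strand of chromosome 6 in the mm10 (GRCm38) assembly and are annotated as protein-coding. The 8 members other than *Klra2* span chr6:129898996-130386874, a stretch of 487.9 kb, in the order *Klra5*, *Klra6*, *Klra4*, *Klra8*, *Klra9*, *Klra7*, *Klra3* and *Klra1*. *Klra2* lies 832.3 kb beyond *Klra1*, at chr6:131219223-131247362. The promoter sequences show how close the members are to each other and where they part, and RefSeq entries (GRCm38.p6) matched 9 of 9 members. The 130 bases before the RefSeq start of the 6 members with the highest levels in NK/ILC cells, of *Klra6* for the T cells and of *Klra2* for the myeloid cells are given here, 5′ to 3′ on the minus strand, from chr6:130067272-130067401 (Klra4), chr6:130129899-130130028 (Klra8), chr6:130233323-130233452 (Klra7), chr6:130193113-130193242 (Klra9), chr6:130337627-130337756 (Klra3), chr6:130386875-130387004 (Klra1), chr6:130026955-130027084 (Klra6) and chr6:131247363-131247492 (Klra2). Capitals mark the run GCAATTTCCTC, or its counterpart in *Klra7*.
Klra4: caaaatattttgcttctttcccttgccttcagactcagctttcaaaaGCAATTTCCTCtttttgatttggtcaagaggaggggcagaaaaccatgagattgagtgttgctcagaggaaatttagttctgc
Klra8: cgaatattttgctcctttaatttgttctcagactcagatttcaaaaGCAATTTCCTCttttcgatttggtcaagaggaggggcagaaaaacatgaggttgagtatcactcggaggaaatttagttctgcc
Klra7: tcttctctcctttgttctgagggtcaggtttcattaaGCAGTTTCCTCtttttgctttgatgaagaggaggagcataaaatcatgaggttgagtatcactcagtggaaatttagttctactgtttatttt
Klra9: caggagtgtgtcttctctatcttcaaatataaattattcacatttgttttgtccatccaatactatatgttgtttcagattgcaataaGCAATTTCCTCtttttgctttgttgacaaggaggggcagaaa
Klra3: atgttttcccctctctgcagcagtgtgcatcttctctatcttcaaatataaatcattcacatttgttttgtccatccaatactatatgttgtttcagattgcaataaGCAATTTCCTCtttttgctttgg
Klra1: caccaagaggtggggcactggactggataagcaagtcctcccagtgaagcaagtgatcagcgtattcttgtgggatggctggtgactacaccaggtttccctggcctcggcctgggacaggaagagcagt
Klra6: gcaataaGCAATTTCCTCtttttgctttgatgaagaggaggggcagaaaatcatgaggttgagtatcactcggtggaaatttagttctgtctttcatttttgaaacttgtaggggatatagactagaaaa
Klra2: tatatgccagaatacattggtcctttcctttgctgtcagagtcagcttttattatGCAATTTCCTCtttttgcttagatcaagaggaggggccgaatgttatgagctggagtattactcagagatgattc

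The run GCAATTTCCTC was picked after these promoters had been compared. It was present in 7 of the 9 members, at 23 (*Klra3*) to 123 (*Klra6*) bases before the start, and in 19 of 32851 RefSeq promoter windows (0.0578%) when both strands were searched, 9 of them of Klra entries. *Klra7* carried a single substitution, A4G, counted from 1 at the 5′ end of the run, and *Klra1* had no copy with fewer than 4 mismatches. The overlapping run TTTCCTCTTTT was also in 7 members, and in 49 windows (0.149%). A match is a description of these letters and not a binding site. Members were compared base by base over 91 bases, made of the run and the bases just before it. The pairs among *Klra3*, *Klra5*, *Klra6* and *Klra9* were 91.2% (*Klra3* and *Klra5*) to 96.7% (*Klra3* and *Klra9*) identical, with *Klra5* and *Klra6* at 95.6%. The activating receptors *Klra4* and *Klra8* were 83.5% identical.

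Near-identical copies matter for the counts, since a read that maps equally well to more than 1 gene is usually dropped. In the last 500 bases of the transcripts, where 3′ reads fall, 10.2% of the windows as long as the 90-base read of *Klra7* recurred in *Klra13-ps*, 14.1% of those of *Klra9* in *Klra10*, *Klra11-ps* or *Klra3*, and 8.52% of those of *Klra3* in *Klra10* or *Klra9*. The other 6 members shared no such window with another gene. The levels of *Klra3*, *Klra7* and *Klra9* are therefore less certain than those of the other members. A transcript gives its UMI at the 3′ end whatever its length, so levels were not divided by length.

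In NK/ILC cells of the CD45 ZsG-negative library, the 9 members together gave 24820 UMIs, or 1964 UPM (1939 to 1988), and 90.8% of the 2075 cells (89.5 to 92.1%) had at least 1. The activating receptors led. *Klra4* reached 646 UPM (632 to 660) and *Klra8* 423 (411 to 434), which together with the inhibitory *Klra7* at 355 (344 to 365) and *Klra9* at 265 (256 to 274) put the 4 genes above *Klra3* at 164 (157 to 171) and *Klra1* at 93 (87.7 to 98.4). None of these intervals overlapped its neighbor in the order. *Klra6* at 9.49 and *Klra5* at 7.28 had overlapping intervals, and *Klra2*, at 2.14, was the lowest member.

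The share of positive cells followed another order. *Klra7* was found in 53.3% of these cells (51.1 to 55.5%), *Klra8* in 52.3% (50.2 to 54.5%) and *Klra4* in 49.8% (47.6 to 52.0%), with overlapping intervals. What set *Klra4* apart was the number of molecules in a positive cell, 7.91 UMIs on average against 4.92 for *Klra8* and 4.05 for *Klra7*. *Klra1* was in only 13.8% of cells but gave 4.09 UMIs per positive cell, while *Klra3* was in 30.5% of cells with 3.27. *Klra5* was in 1.25% of cells and gave 3.54 UMIs where it was found, against 3.76% and 1.54 for *Klra6*. With each cell thinned to 2000 UMIs, which left out 3 of the 2075 cells, the share with any member was 85.2%, and *Klra4* (44.2%), *Klra8* (41.4%) and *Klra7* (37.7%) stood in the order of their levels.

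**Figure D1:**
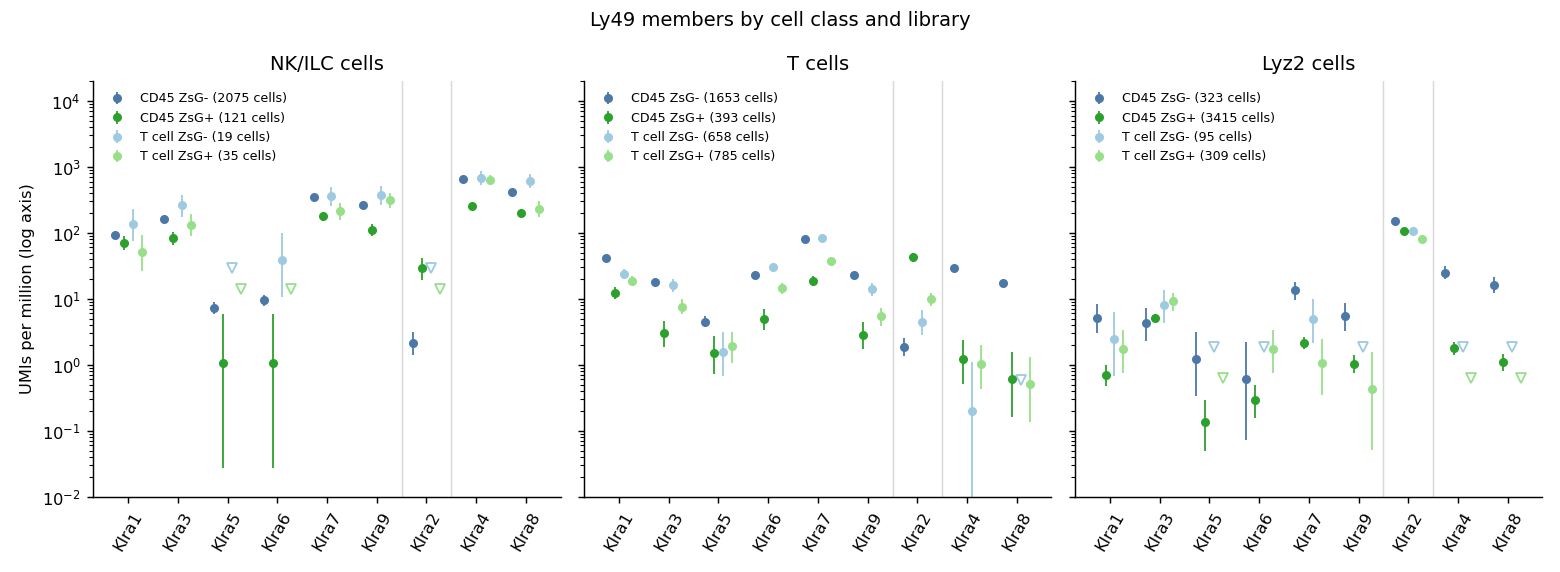
UMIs per 1000000 UMIs (UPM, log axis) of the 9 members in NK/ILC, T and *Lyz2* cells of the 4 libraries, with 95% Poisson intervals. Open triangles stand at the floor of 3 counts where no UMI was found. In NK/ILC cells *Klra4* and *Klra8* are highest in the CD45 libraries and *Klra2* is lowest in the CD45 ZsG-negative one, while in *Lyz2* cells *Klra2* stands above every other member.

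Free RNA in droplets gives some UMIs to cells that do not express a gene. In the same library, *Lyz2* cells with no UMI of the CD3 genes, *Ncr1* or *Klrb1c* (244 cells) had a *Klra4* UMI in 0.820% of cells, *Klra7* in 2.05% and *Klra8* in 2.46%. The 41 B cells of that library, at 68.4 UPM for the 9 members together, had a UMI in 17.1% of cells. The median depth was 4687 UMIs in NK/ILC cells and 8806 in *Lyz2* cells, so the shares in NK/ILC cells lay well above those of the deeper *Lyz2* cells for all members except *Klra2*, *Klra5* and *Klra6*, whose shares in NK/ILC cells were 0.819%, 1.25% and 3.76%. Of the latter pair, no UMI was found in the 244 *Lyz2* cells, which allows up to 1.39 UPM.

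The members were unequally spread over NK/ILC subsets of this library. The 1811 cells without a UMI of the ILC1 genes *Itga1*, *Cd200r1* and *Il7r* had a summed level of 2167 UPM, against 907 in the 264 cells with one, a log2 difference of 1.26 (1.19 to 1.33). The difference was 1.72 for *Klra1*, 1.69 for *Klra4* and 1.62 for *Klra8*, but 1.06 for *Klra7*, 0.67 for *Klra3* and 0.62 for *Klra9*, and −0.13 (−0.92 to 0.75) for *Klra5*. The intervals of the activating receptors and *Klra1* were thus apart from those of *Klra3* and *Klra9*. *Klra6* had a difference of 1.87 (0.70 to 3.35), resting on 6 UMIs at 2.94 UPM in the cells with an ILC1 gene UMI against 10.8, and *Klra2* one of −2.27 (−3.47 to −1.06), at 6.37 against 1.32. In the 157 cells with an ILC1 gene UMI and no *Eomes*, the transcription factor of conventional NK cells, the sum was 716 UPM and 57.3% of cells had a member, against 2202 and 96.6% in the 1124 cells with *Eomes* and no ILC1 gene.

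Cells with at least 3 UMIs of *Gzmc*, a granzyme induced in activated NK cells, had a summed level of 1282 UPM (252 cells) against 2184 in the rest. These levels are relative to all UMIs, and the *Gzmc* cells were deeper. With 3960 Ly49 UMIs, against 20860 in the rest, the *Gzmc* cells did not hold fewer Ly49 UMIs per cell. *Klra4* was at 313 against 754 (log2 −1.27), *Klra8* at 224 against 487 (−1.12), *Klra9* at 196 against 287 (−0.55) and *Klra7* at 295 against 374 (−0.34), all with intervals below 0. *Klra5* was also lower (−1.76, −3.02 to −0.72, with 8 and 84 UMIs), as was *Klra2* (−2.01, −5.14 to −0.011, with 2 and 25 UMIs). The intervals of *Klra1*, at 92.0 and 93.3, of *Klra3*, at 153 and 167, and of *Klra6* (−0.61, −1.36 to 0.082) included 0.

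How many receptors a cell carried was read after thinning to 2000 UMIs. Of 2072 NK/ILC cells of the CD45 ZsG-negative library, 14.8% had none of the 9 members, 23.8% had 1, 29.7% had 2, 23.3% had 3, 7.43% had 4 and 0.917% had 5, with a mean of 1.88 per cell. The mean was 2.31 at 4000 UMIs and 2.47 at full depth, so it is a lower limit that moves with depth. The shares with few members went the other way, and at full depth 9.16% of cells had none and 14.2% had 1. The shares below of cells with 1 role only or 1 gene alone were taken only after thinning. A missed UMI can place a cell among them, so they are not lower limits. Sorting the cells by role, 48.5% (46.3 to 50.6%) had both an activating and an inhibitory member, 22.6% had only inhibitory members, 14.1% had only activating ones and 14.8% had neither *Klra4*, *Klra8* nor any inhibitory gene counted. For the 5 receptors *Klra4*, *Klra8*, *Klra7*, *Klra9* and *Klra3*, all 32 possible combinations were seen. After the cells with none (15.9%), the most frequent were *Klra7* alone (6.71%), *Klra4* alone (6.66%), *Klra4* with *Klra8* and *Klra7* (6.52%) and *Klra9* alone (5.65%).

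**Figure D2:**
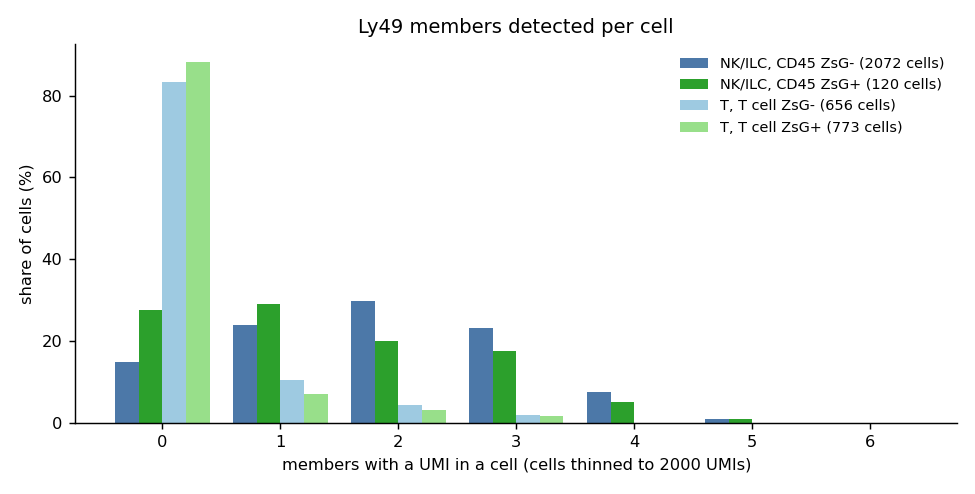
Share of cells (percent) by the number of members with a UMI, in cells thinned to 2000 UMIs. NK/ILC cells of the CD45 ZsG-negative library peak at 2 members, while T cells of the T cell sort have none in 83.2% (ZsG-negative) and 88.2% (ZsG-positive) of cells.

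Pairs of receptors were close to what their separate shares would give, with some exceptions. *Klra4* and *Klra8* were found together in 475 cells, where the product of their shares gives 378.5, a ratio of 1.26. The inhibitory pair *Klra3* and *Klra9*, which are neighbors in sequence, was at 1.00 (131 cells against 130.6). *Klra1* was found less often than that product with *Klra3* (28 cells against 41.1, ratio 0.68) and *Klra9* (43 against 61.3, ratio 0.70), but more often with *Klra4* (112 against 88.3) and *Klra7* (97 against 75.5). *Klra1* with *Klra6*, both rare, gave 9 cells against 4.34, and *Klra5* with *Klra6* gave 2 cells against 0.478, too few to read. At full depth the ratios of *Klra1* with *Klra3* and *Klra9* were 0.69 and 0.78.

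**Figure D3:**
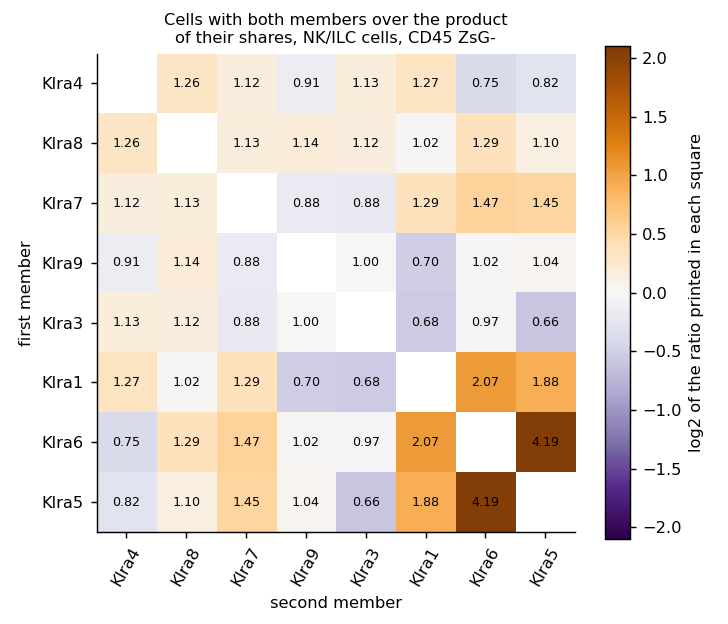
Number of NK/ILC cells of the CD45 ZsG-negative library with both members over the number that the product of the shares gives, in cells thinned to 2000 UMIs, for the pairs of the 8 members other than *Klra2*. Each square prints the ratio and its color is the log2 of it, from −2.1 to 2.1. Most pairs lie near a ratio of 1, and *Klra1* lies below 1 with *Klra3* and *Klra9* (0.68 and 0.70).

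The 1766 thinned NK/ILC cells with a member were compared with the 306 without, for 4783 genes. Of these, 36 (0.753%) were at least 2-fold higher and 58 (1.21%) at least 2-fold lower in cells with a member. The 10 highest were *Khdc1a* (log2 2.02, 1.25 to 3.05), the chymase *Cma1* (1.67), *Slc25a33*, *Eya1*, *Htt*, *Cep120*, *Mfap1b*, *Cpeb4*, *Zfhx3* and *Nlrc3* (1.30). Cells without a member were higher for *Tcrg-C4*, a constant segment of the gamma T cell receptor (−4.85), for the paired membrane genes *Tmem176b* (−3.91) and *Tmem176a* (−3.44), which are markers of ILC1 and other innate lymphocytes, and for *Ckb* (−3.75) and *Krt83* (−3.75). *Khdc1a* was detected in 12.5% of cells with a member and 3.92% of those without. The cells without a member held 12 UMIs of *Khdc1a* and only 5 to 8 of each other gene among the 10 highest. At full depth 190 of the 2075 NK/ILC cells had no member, so part of the 306 cells had one that thinning removed.

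Of the lectin-like receptors encoded near the Ly49 cluster, 11 of 12 could be compared in this way, and 2 were at least 2-fold lower in cells with a member. These were *Klrc1*, encoding the inhibitory receptor NKG2A that binds Qa-1 and not classical MHC class I (153 against 322 UPM, log2 −1.07), and *Klrb1b*, an inhibitory NKR-P1 receptor (228 against 459, −1.01). None was 2-fold higher, the nearest being *Klri2* at 0.83. *Eomes* was at 234 and 118 UPM (0.98) and *Tyrobp*, the adaptor of the activating members, at 2819 and 2230 (0.34). None of the 6 adaptors and kinases, 3 phosphatases, 3 comparable ligand genes and 6 comparable transcription factors passed 2-fold in either direction. Over the 11 groups of class and library with at least 20 cells, which share 4 libraries, levels were compared on a log2 scale. Most like the summed members were *Klrb1f* (Pearson r 0.987), *Khdc1a* (0.982), *Khdc1c* (0.982), *Trdv2-2* (0.979) and *Styk1* (0.978). Levels of *Khdc1c* and *Trdv2-2* were low, at most 4.74 and 6.49 UPM in any group.

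In the CD45 sort, NK/ILC cells of the ZsG-positive library had 930 UPM of the 9 members (869 to 994), a log2 ratio of −1.08 (−1.18 to −0.98) to the ZsG-negative library. The share of positive cells was 87.6% against 90.8%, and 72.5% against 85.2% after thinning. *Klra4* was at 253 UPM against 646 (log2 −1.35), *Klra9* at 111 against 265 (−1.26), *Klra8* at 202 against 423 (−1.06), *Klra7* at 179 against 355 (−0.99), *Klra3* at 83.9 against 164 (−0.96) and *Klra1* at 71.0 against 93 (−0.39). *Klra2* went the other way, at 29.0 against 2.14 (3.76). Of the 9 members, 5 were at least 2-fold lower, beside 6.91% of the 10669 genes compared, and 1, *Klra2*, was at least 2-fold higher, beside 11% of these genes. *Klra5* and *Klra6*, which are among the 5, had 1 UMI each in the ZsG-positive cells.

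These ratios moved with the macrophage and monocyte transcripts in the same cells. In NK/ILC cells that did not also meet the T or *Lyz2* gate (2063 and 94 cells), the sum was 1975 against 1622 UPM, a log2 ratio of −0.28 (−0.39 to −0.18). In cells with no *Lyz2* UMI it was 1987 in 1759 ZsG-negative and 2035 in 22 ZsG-positive cells, a ratio of 0.034. It was 1911 against 1495 with 1 to 4 *Lyz2* UMIs, and 1110 (12 cells) against 273 (27 cells) with at least 5. The NK marker sum given above, 8087 against 4220 UPM, was lower in the ZsG-positive cells too, and the part of macrophage RNA in these ratios beyond the values given was not tested.

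Cells meeting only the NK/ILC gate differed between members. *Klra1*, Ly49A, was higher in the ZsG-positive library, at 143 against 93.9 UPM (0.61, 0.23 to 0.97). The ZsG-positive value rested on 65 UMIs in 17 of the 94 cells, and the interval counts UMIs and not cells. The shares of cells with *Klra1*, 18.1% (10.9 to 27.4%) against 13.8% (12.4 to 15.4%), had overlapping intervals. *Klra3* was at 163 and 165 (−0.02, −0.37 to 0.32) and *Klra8* at 384 and 425 (−0.15, −0.37 to 0.07), intervals that include 0. *Klra9* (−0.56), *Klra4* (−0.54) and *Klra7* (−0.26) were lower, with intervals below 0. *Klra6* had 120 UMIs in the ZsG-negative and 1 in the ZsG-positive cells, *Klra5* 92 and 0, and *Klra2* 9 and 2. For *Klra5* and *Klra6* the depth of 94 cells could not show a difference, since the intervals reached above 0.

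**Figure D4:**
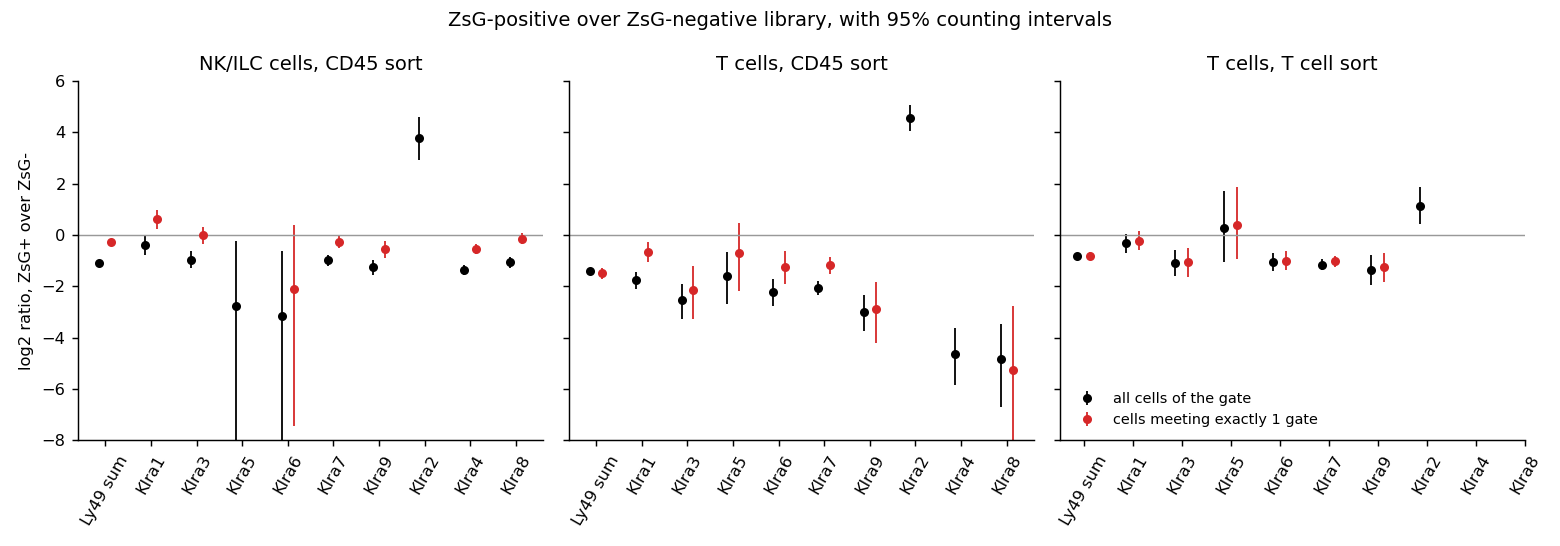
Log2 ratio of ZsG-positive over ZsG-negative UPM, with 95% counting intervals drawn down to −8, for the sum and each member with at least 20 UMIs and a UMI in both libraries. Black points use all cells of a gate and red points cells that meet exactly 1 gate. The black and red points for the sum differ in NK/ILC cells (−1.08 and −0.28) and lie close together in T cells of the T cell sort (−0.83 and −0.82).

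The T cell sort held few NK/ILC cells, again with *Klra4* as the highest member. The sum was 2465 UPM (2171 to 2787) in 19 ZsG-negative cells and 1583 in 35 ZsG-positive cells. *Klra4* was at 679 and 640 UPM, *Klra8* at 621 and 232, and *Klra1* at 136 and 52.1. No *Klra2* and no *Klra5* UMI was found in either set.

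The wider lectin family and the signaling partners were compared in NK/ILC cells between the libraries of the CD45 sort. Of the 12 lectin neighbors, 1 was at least 2-fold lower, *Klrb1a* (−1.51), and none was 2-fold higher, with a median log2 ratio of −0.74, beside −1.06 for the members and 0.02 for all genes. *Tyrobp* was at 2534 and 2515 UPM. Of the 6 adaptors and kinases 1 was 2-fold lower (*Zap70*, −1.21), of the 3 phosphatases 1 was 2-fold higher (*Ptpn6*, 1.69), of the 7 transcription factors *Zeb2* was 2-fold higher (1.83) and *Gata3* lower (−1.10), and of the 4 ligand genes 1 was 2-fold higher (*Plau*, 6.22). *Ptpn6*, *Zeb2* and *Plau* are also expressed by macrophages, whose markers were higher in the same cells.

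In T cells the family was lower and the mix of members differed. T cells of the T cell sort had 172 UPM of the 9 members in the ZsG-negative library (161 to 184) and 96.7 in the ZsG-positive one (89.9 to 104), and 23.7% and 19.5% of cells had a UMI. *Klra7* led with 82.4 and 37.0 UPM, followed by *Klra6* (30.0 and 14.6) and *Klra1* (23.7 and 18.9), whose intervals overlapped each other. *Klra3* was at 16.1 and 7.59, and *Klra9* at 13.9 and 5.44. The activating receptors were nearly missing: *Klra4* had 1 UMI in 658 cells and 8 in 785, in 0.255% of the latter, and *Klra8* had 0 and 4, where 0 of 658 cells allows a share of up to 0.456%. *Klra6*, which gave 0.483% of the Ly49 UMIs of NK/ILC cells, gave 17.4% and 15.1% of those of T cells.

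The Ly49 UMIs of T cells sat in few cells. Leaving out *Klra2*, the top 5% of T cells held 48.6% of the UMIs in the ZsG-negative library (33 of 658 cells) and 64.9% in the ZsG-positive one (39 of 785), against 16.9% for the top 5% of NK/ILC cells in the CD45 ZsG-negative library. Within T cells, those with UMIs of neither *Cd4* nor the CD8 genes were highest, at 467 UPM in 139 ZsG-negative and 418 in 148 ZsG-positive cells. Cells with CD8 and no *Cd4* were at 140 (438 cells) and 71.5 (492 cells). Cells with *Cd4* and neither CD8 nor *Foxp3* were at 29.5 and 77.0 UPM, from 11 and 18 UMIs. The log2 ratio of the CD8 cells to them was 2.25 (1.39 to 3.26) in the ZsG-negative library. In the ZsG-positive library it was −0.11 (−0.78 to 0.66), an interval that includes 0. *Foxp3* cells with *Cd4* had no Ly49 UMI in 14 ZsG-negative cells, and 6.83 UPM in 72 ZsG-positive cells, all of them *Klra2*. The few T cells with an *Ncr1* or *Klrb1c* UMI (40 and 32) reached 653 and 745 UPM, led by *Klra7* at 359 and 317.

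Members were found together in the same T cells far more often than the product of their shares. After thinning, *Klra1* with *Klra7* gave 16 and 20 cells against 3.03 and 2.07 (ratios 5.28 and 9.66), *Klra6* with *Klra7* gave 21 and 14 (5.24 and 9.02), and *Klra1* with *Klra6* gave 10 and 8 (6.33 and 8.05). The same pairs in NK/ILC cells, where most cells had a member, were at 1.29, 1.47 and 2.07, the last from few cells. Such a ratio cannot exceed the inverse of the larger share. *Klra7* was in far more of the NK/ILC cells than of the T cells, so its pairs had a lower limit there. The classes can therefore not be compared by these ratios. In T cells of the CD45 ZsG-negative library, *Klra4* with *Klra8* gave 20 cells against 1.87 (10.7). Most UMIs of both genes in this gate sat in cells with an *Ncr1* or *Klrb1c* UMI. These held 599 *Klra4* and 339 *Klra8* UMIs, against 52 and 36 in the rest. The pair was not counted without such cells.

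To compare T cells with and without a member, both libraries of the T cell sort were pooled. After thinning, no member was found in 83.2% of 656 ZsG-negative and 88.2% of 773 ZsG-positive cells. The sets with and without a member therefore differ in their mix of libraries. How far this mix enters the differences below was not tested. Of 4615 genes compared between the 201 thinned T cells with a member and the 1228 without, 134 (2.90%) were at least 2-fold higher and 269 (5.83%) at least 2-fold lower. The 10 highest were *Rbpms* (log2 3.83), *Spry2* (3.73), an inhibitor of receptor kinase signaling, *Myo6*, *Ttc28*, *Klrb1c* (2.84), which encodes NK1.1, *Qrfp*, *Klf9*, *Trgv2*, *Pde2a* and *Klhdc2* (2.68). *Klhdc2* was the most widely detected, in 41.3% of cells with a member and 9.36% of those without. The 5 lowest were *Dapl1*, *Foxp3*, *Klrg1* and *Fam110a*, with no UMI in the cells with a member and at least 7.91-, 7.15-, 5.57- and 4.15-fold lower there, and the chemokine *Ccl3* (−4.96, 19.9 against 658 UPM). Leaving out *Klra2*, *Gzmk* (at least 11.4-fold lower), *Slamf1* (at least 7.64-fold lower) and the costimulatory receptor *Tnfrsf4* (−5.98) were among the 5 lowest.

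Of 7 lectin neighbors that could be compared, 3 were at least 2-fold higher in the T cells with a member, namely *Klrb1c*, *Klre1* (2.04) and *Klrd1* (1.27, 816 against 339 UPM), and 1, *Klrg1*, was lower. Of the 7 transcription factors, *Tcf7* was higher (1.11, 0.73 to 1.46, 214 against 99.8 UPM) and *Prdm1* was lower (−1.46, −3.53 to −0.20, 9.95 against 30.5). *Prdm1* was rare, with a UMI in 1.49% of the cells with a member and 5.54% of those without. *Eomes* was at 24.9 and 35.0 UPM, with an interval that included 0 (−0.43, −1.60 to 0.45). With *Klra2* left out of the members, *Prdm1* was at 2.58 against 31.6 UPM (−3.04, −8.94 to −1.09), with a UMI in only 0.515% of the cells with a member. *Zeb2*, at −0.87 with *Klra2* among the members, was at 20.6 against 77.7 (−1.83) without it.

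Between the libraries of the T cell sort, the summed level in T cells had a log2 ratio of −0.83 (−0.98 to −0.69). The cells meeting only the T gate gave −0.82, with 176.6 against 99.97 UPM. *Klra9* (−1.36), *Klra7* (−1.16), *Klra3* (−1.08) and *Klra6* (−1.04) were lower in the ZsG-positive library, while *Klra1* was at −0.33 (−0.69 to 0.03) and *Klra5* at 0.27 (−1.05 to 1.72). Of the 7 members with at least 20 UMIs, 4 were at least 2-fold lower, beside 1.5% of 10529 genes, and *Klra2* was at least 2-fold higher (1.13), beside 4.96%. The share of positive cells was 16.8% against 11.8% after thinning. The mean over cells, in which each cell counts equally, gave a smaller ratio of −0.47.

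In the CD45 sort, T cells had 238 UPM (232 to 245) in the ZsG-negative and 89.2 (82.2 to 96.7) in the ZsG-positive library, a log2 ratio of −1.42 (−1.54 to −1.29). This T gate held more NK-like cells than that of the T cell sort: 408 of 1653 ZsG-negative cells had an *Ncr1* or *Klrb1c* UMI, at 794 UPM against 108 in the rest, and the 300 cells without a *Trac* UMI were at 883. In the ZsG-positive library 30 of 393 T cells had an *Ncr1* or *Klrb1c* UMI. With such cells left out the ratio was −0.49, and with no *Lyz2* UMI it was −0.55 (1319 and 35 cells). In T cells meeting exactly 1 gate (1624 and 184 cells) it was −1.49, and −1.54 without *Klra2*. Over all T cells, the sum without *Klra2* gave a ratio of −2.38, with 236 against 45.4 UPM. The ratio of −0.49 includes *Klra2*, and a ratio without both *Klra2* and the NK-like cells was not taken. Of the 9 members, 8 were at least 2-fold lower, beside 4.58% of 11826 genes, and *Klra2* was at least 2-fold higher (4.55), beside 12.4%.

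The activating receptors differed most. *Klra4* was at 29.8 UPM against 1.204 (−4.63) and *Klra8* at 17.2 against 0.602 (−4.83). Most of these UMIs sat in the NK-like cells of the ZsG-negative library. *Klra4* had 599 UMIs in its T cells with an *Ncr1* or *Klrb1c* UMI and 52 in the rest (144 against 2.94 UPM). *Klra8* had 339 and 36 (81.5 against 2.03 UPM). Ratios of both members without such cells were not taken. In T cells meeting 1 gate only, which still include the NK-like cells, *Klra4* had 647 UMIs in 1624 ZsG-negative and 0 in 184 ZsG-positive cells. *Klra8* had 374 and 1. The inhibitory *Klra1* (−0.66), *Klra7* (−1.18) and *Klra6* (−1.24) differed least among the members with intervals below 0, and *Klra9* (−2.88) and *Klra3* (−2.14) lay between. *Klra1* had a ratio of 0.61 in NK/ILC cells meeting 1 gate, resting on 17 ZsG-positive cells with a UMI. Its directions in these NK/ILC and T cells were thus opposite. Over all cells of the gates they were not, with ratios of −0.39 and −1.76.

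*Klra2*, Ly49B, followed the myeloid cells. In *Lyz2* cells it reached 153 UPM (CD45 ZsG-negative), 106 (CD45 ZsG-positive, 103 to 109), 106 (T cell ZsG-negative) and 81.3 (T cell ZsG-positive), and was found in 63.8%, 63.1%, 53.7% and 51.1% of cells. The other 8 members together gave 71.2, 12.3, 15.6 and 14.1 UPM in these cells. In the *Lyz2* cells with no UMI of the CD3 genes, *Ncr1* or *Klrb1c*, *Klra2* was found in 65.6%, 63.1%, 52.5% and 53.2% of 244, 2965, 80 and 237 cells.

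*Klra2* levels in UPM were higher in monocyte sets than in macrophage sets. *Lyz2* cells with at least 10 UMIs of the complement genes *C1qa*, *C1qb* and *C1qc*, which mark tumor macrophages, had 92.7 UPM in the CD45 ZsG-positive library (89.3 to 96.2, 1982 cells), and 50.05 and 61.5 in the T cell ZsG-negative and ZsG-positive libraries. Cells with fewer C1q UMIs and at least 3 of the monocyte genes *Vcan* and *Chil3* had 216 (CD45 ZsG-negative), 176.8 (CD45 ZsG-positive), 254 (T cell ZsG-negative) and 139 (T cell ZsG-positive). Cells with at least 2 UMIs of *Ace* and *Treml4*, genes of non-classical monocytes, had 180 (152 to 212, 87 cells) and 202 (169 to 240, 56 cells) in the CD45 libraries. The intervals of the monocyte and macrophage sets were apart in the CD45 ZsG-positive library and in both T cell libraries. Only 7 *Lyz2* cells of the CD45 ZsG-negative library passed the C1q limit, so the CD45 libraries differ in their mix of these cells. The levels are relative to all UMIs. *Lyz2* cells without CD3, *Ncr1* or *Klrb1c* UMIs were also split by C1q alone. In the CD45 ZsG-positive library, *Klra2* was in 63.2% of cells with at least 10 C1q UMIs and 63.0% of the rest. The *Klra2* UMIs were 2376 in 1674 and 1696 in 1291 cells, so these C1q cells did not hold fewer per cell. The shares were 46.7% and 56% (T cell ZsG-negative) and 51.0% and 54.9% (T cell ZsG-positive).

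The higher *Klra2* of ZsG-positive lymphocytes sat in cells with *Lyz2* UMIs. Of the 27 *Klra2* UMIs in NK/ILC cells of the CD45 ZsG-positive library, 25 were in the 27 cells with at least 5 *Lyz2* UMIs, and none was in the 22 cells without *Lyz2*. T cells of the T cell ZsG-positive library had 51.2 UPM of *Klra2* with at least 5 *Lyz2* UMIs and 0.736 with none. T cells of the CD45 ZsG-positive library had 64.1 with at least 5 and 2.73 with fewer.

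*Klra3* was the next member after *Klra2* in macrophages of the ZsG-positive libraries. In the *Lyz2* cells of the CD45 ZsG-positive library with no CD3, *Ncr1* or *Klrb1c* UMI, *Klra3* had 188 UMIs in 151 of 2965 cells (5.17 UPM, 4.46 to 5.96), against 23 for *Klra4*, 15 for *Klra8* and 9 for *Klra7*. In the NK/ILC cells of the same library the order was the other way, with 78 *Klra3* UMIs and 235, 188 and 166 of the other genes. With at least 10 C1q UMIs, *Klra3* was at 6.07 UPM (5.14 to 7.12) in 7.23% of 1674 cells, against 3.26 in 2.32% of the 1291 cells with fewer. The T cell ZsG-positive library gave 24 UMIs in 16 of 104 such cells with at least 10 C1q UMIs (13.5 UPM, 8.65 to 20.1), and none of *Klra1*, *Klra4*, *Klra5*, *Klra6*, *Klra7* or *Klra8*. In the CD45 ZsG-negative library 1 UMI was found in 244 cells, only 5 of them with at least 10 C1q UMIs. The T cell ZsG-negative library had no *Klra3* UMI in 80 cells, which allows up to 2.47 UPM. Of these, 30 had at least 10 C1q UMIs, which allows up to 4.55 UPM. Over all *Lyz2* cells, those with T or NK transcripts included, the ZsG ratio of *Klra3* was 0.27 (−0.51 to 1.16, 14 and 227 UMIs) in the CD45 sort and 0.19 (−0.74 to 1.204, 13 and 43 UMIs) in the T cell sort. Of the read-length windows at the end of *Klra3*, 7.79% recur in *Klra10*. The gene behind these UMIs is therefore less certain than for members that share no window, although *Klra10* itself had no UMI in any *Lyz2* cell.

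**Figure D5:**
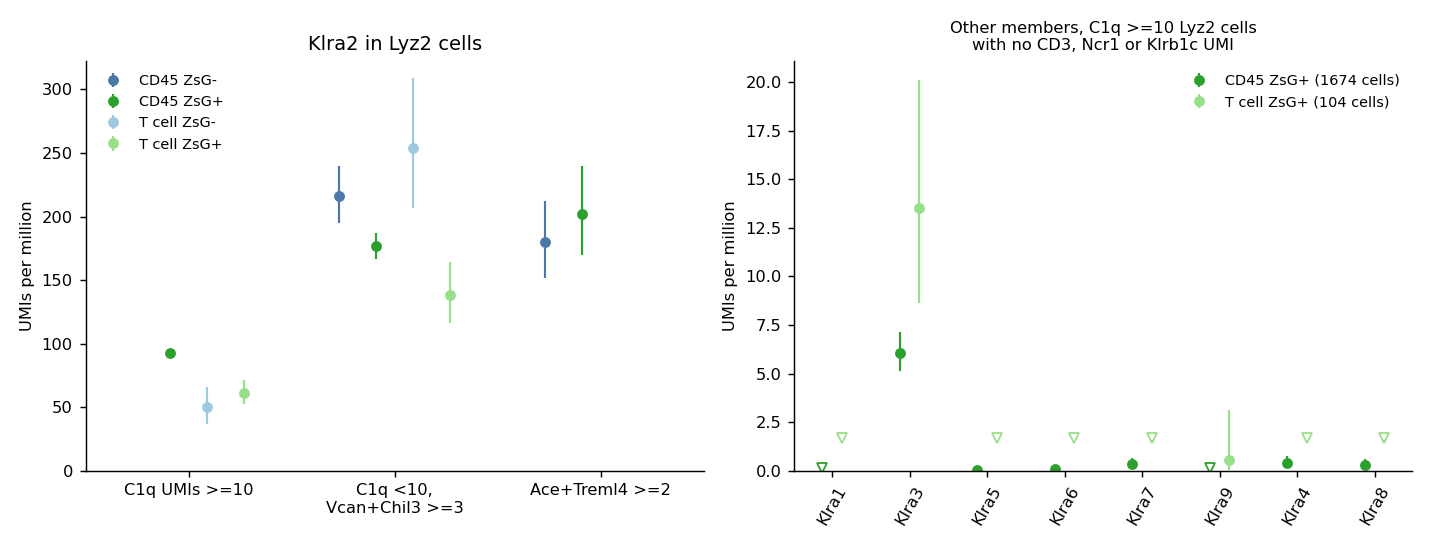
UMIs per 1000000 UMIs (UPM) with 95% Poisson intervals. Left, *Klra2* in *Lyz2* cells of each library split by macrophage (C1q) and monocyte genes, for sets of at least 20 cells, where the macrophage sets are lowest. Right, the other 8 members in *Lyz2* cells with at least 10 C1q UMIs and no CD3, *Ncr1* or *Klrb1c* UMI, with open triangles at the floor of 3 counts where no UMI was found. *Klra3*, at 6.07 and 13.5 in the CD45 and T cell ZsG-positive libraries, is above the other members.

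Plasmacytoid dendritic cells, gated by at least 3 *Siglech* UMIs, had 109 UPM of the members in the CD45 ZsG-negative library and 2.69 to 11.1 in the other libraries. The 109 UPM came from 26 of 225 cells, with 9.15 UMIs per positive cell, and the gate did not leave out NK/ILC or T cells. Ly49Q, encoded by *Klra17* and known from these cells, reached 127 UPM (CD45 ZsG-negative, 225 cells), 88.5 (CD45 ZsG-positive, 31 cells), 124 (T cell ZsG-negative, 123 cells) and 147 (T cell ZsG-positive, 628 cells). In NK/ILC cells of the CD45 ZsG-negative library *Klra17* was at 1.19 and *Klra10* at 1.03 UPM. *Klra17* was also found in the cells outside the NK/ILC, T and *Lyz2* gates, plasmacytoid and DC1 cells among them, at 59.6, 15.2, 94.3 and 121 UPM in the order of the libraries, and in DC1 cells, at 73.1, 4.57, 101 and 91.0. The DC1 cells, gated by at least 2 UMIs of *Xcr1* and *Clec9a*, had 57.3 UPM of *Klra2* in the CD45 ZsG-positive library, in 46.4% of 196 cells, none in the 61 cells of the CD45 ZsG-negative library, and 7.24 and 9.85 UPM in the 37 and 145 cells of the T cell ZsG-negative and ZsG-positive libraries. The DC1 gate did not leave out *Lyz2* or *Siglech* cells, and the name was not checked against other markers. Of the 3415 *Lyz2* cells of the CD45 ZsG-positive library, 12.1% had an *Xcr1* or *Clec9a* UMI.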

How the data were processed

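UMI counts, as whole numbers for each gene in each cell barcode, were deposited by the authors, who made them with Cell Ranger on mm10 and combined over both libraries of a sort with its aggr step. The submitters' notes name version 6.1.2, as does the header of the T cell matrix, while the CD45 header has 7.0.0. The sources used here do not say if aggr equalized depth. Every barcode suffix was assigned to a library, and 0 columns of per-sample values were left unmapped. The labels gave the groups, with 1 library in each.

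The members and the gene lists were chosen with earlier results of these data known. Cells were kept with 1000 to 6000 genes and less than 10% mitochondrial UMIs (CD45 sort), or with 50 to 6000 genes and mitochondrial UMIs under 15% (T cell sort). The study's limit of 0.055% CD3 UMIs for T cells was applied only as an alternative. No doublet caller was run, and cells meeting exactly 1 gate were used as an alternative. UMIs were summed per library and cell class and scaled to 1000000, without a count model, since each group is 1 library. Sums have exact Poisson, shares Clopper-Pearson and ratios exact conditional intervals. Medians and counts past 2-fold were taken over genes that had 20 or more UMIs in the compared pair of libraries. The genes named as most like the family were the 10 highest and 5 lowest log2 ratios (0.5 added to each sum) between cells with and without a member, thinned to 2000 UMIs, among genes in at least 5% of the cells of either set, and the 5 genes with the highest Pearson r over groups. A gene at 0 was given as a bound against 3 counts. The ratio intervals were tested on simulated Poisson sums, and the co-detection ratio on simulated independent draws. Thinning was checked for its depth. Uneven spread of UMIs over cells was not simulated, and the other steps were not tested on simulated data. The tools were matplotlib 3.10.9, pandas 2.3.3, scipy 1.17.1 and numpy 2.4.6 in Python 3.11.15, with edgeR 4.0.16 and DESeq2 1.42.0 in R 4.3.3 only for alternative scaling factors. Gene positions are those of GENCODE vM21, and transcript ends were compared in the reference transcripts.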

Additional observations from a re-analysis of the deposited data

Results flagged for a closer look

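Some members had opposite directions in different cell classes, among cells that met exactly 1 gate. The log2 ratio of ZsG-positive over ZsG-negative for *Klra1* in the CD45 sort was 0.61 in NK/ILC cells (65 UMIs in 17 ZsG-positive cells) and −0.66 in T cells. Over all cells of the gates it was −0.39 and −1.76, so the directions were opposite in cells of exactly 1 gate and not over all cells. The ratio for *Klra3* in the CD45 sort was 2.17 in *Lyz2* cells, resting on 3 UMIs in the ZsG-negative cells, and −2.14 in T cells. Over all *Lyz2* cells it was 0.27 (−0.51 to 1.16). In the T cell sort *Klra3* was at least 1.84 in *Lyz2* cells, where the 82 ZsG-negative cells had no UMI and the floor of 3 counts was used, against −0.84 in NK/ILC cells and −1.06 in T cells. Over all *Lyz2* cells of that sort the ZsG-negative library had 13 UMIs and the ratio was 0.19 (−0.74 to 1.204). These are differences between single libraries, and whether the directions differ beyond the spread between mice was not tested. The T cell sort directions turn with the assignment of its libraries.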

How the results depend on the processing

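No paired analysis was possible because each group was 1 library, and leaving out a replicate was not an option for the same reason. Of 74 alternative levels, shares and ratios, 42 stayed within the counting interval of the value reported, 30 lay outside it and 2 changed direction. The sums without *Klra2*, the cells with no *Lyz2* UMI and the exchanged T cell suffixes were added after the data were seen.

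The summed level in NK/ILC cells (1964 UPM, UMIs per 1000000 UMIs) was 1908 with a gate on *Ncr1* alone, 2905 with totals without mitochondrial and ribosomal protein genes, 2220 as a mean over cells and 2228 after thinning. The *Klra2* level in *Lyz2* cells of the CD45 ZsG-positive library (106) was 101 over every barcode, 112 in cells of exactly 1 gate, without the 5% of barcodes with the most UMIs, and with at least 20 *Lyz2* UMIs, 133 without mitochondrial and ribosomal genes, 129 as a mean over cells and 127 after thinning. The share of NK/ILC cells with a member (90.8%) was 85.2% after thinning, and that of T cells (23.7%) was 17.2% with a mitochondrial limit of 5%, 20.4% without *Ncr1* or *Klrb1c* cells, 16.8% after thinning and 19.5% with the suffixes exchanged. Members per NK/ILC cell (1.88) came to 2.47 at full depth and 2.31 at 4000 UMIs.

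The log2 ratio in NK/ILC cells of the CD45 sort (−1.08) was −1.21 with the 5% mitochondrial limit, −0.28 in cells of exactly 1 gate, −0.92 without the barcodes with the most UMIs, −1.20 without mitochondrial and ribosomal genes, −0.59 as a mean over cells, −0.62 after thinning and 0.034 in cells with no *Lyz2* UMI. That in T cells of the CD45 sort (−1.42) was −1.21 with the 5% limit, −1.65 without the barcodes with the most UMIs, −0.49 without *Ncr1* or *Klrb1c* cells, −1.58 without mitochondrial and ribosomal genes, −2.38 without *Klra2* and −0.55 with no *Lyz2* UMI. That in T cells of the T cell sort (−0.83) was −0.47 as a mean over cells, −0.33 after thinning and 0.83 with the suffixes exchanged. The causes were not tested beyond the values given beside the results.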
